A study of Mus musculus with 4 samples.

Results

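The enzymes that make serine and pass its carbon into the folate cycle were followed through 2 lists of genomic sites bound by ATF4, the transcription factor that carries out the integrated stress response. They are 9 genes of 21887 coding genes: Phgdh, Psat1 and Psph of serine synthesis, and Shmt1, Shmt2, Mthfd1, Mthfd1l, Mthfd2 and Aldh1l2 of the folate one-carbon cycle. They were taken by name as enzymes of the pathway, with earlier results of these data known. Every peak inside one of the genes or within 50 kb of it was collected.

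The cells were primary cortical neurons from E14.5-15 embryos of CD1 mice, an outbred stock, kept with 2 µM cytosine arabinoside, which stops dividing cells. They received lentivirus on day 6 of culture and were collected on day 11. The control neurons carried shControl and a genotype given as WT. The knock-down neurons carried shOpa1, a hairpin against the inner mitochondrial membrane fusion GTPase Opa1, and a genotype given as Opa1 knock-down. The labels name 4 libraries, 1 each of ATF4 ChIP from both conditions and, from control neurons, of IgG ChIP and input. The last pair was not analysed here, so no background was taken from it, and whether the authors' peak calls used it is not given. With 1 library per condition nothing was tested, and a difference between the lists has no replicate check. Peak lists hold no expression, so neither the labelled cell type nor the loss of Opa1 was checked.

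Serine is made from the glycolytic intermediate 3-phosphoglycerate in a chain of steps run by Phgdh, Psat1 and Psph. The serine hydroxymethyltransferases then split it to glycine and load the freed carbon onto tetrahydrofolate, in the cytosol through Shmt1 and in mitochondria through Shmt2. The mitochondrial enzymes Mthfd2, Mthfd1l and Aldh1l2 oxidise that carbon, export it as formate or release it as carbon dioxide, and in the brain Phgdh is known to be abundant in glia that supply serine to neurons.

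The control list held 93 peaks with 15 to 80 tags each, and the Opa1 knock-down list 952 peaks with 13.68 to 214 tags. Sequencing depth is unknown, so tags are not comparable between libraries as amounts. A peak's fold, the authors' enrichment over the caller's background, had a median of 7.53 over control peaks and 8.13 over knock-down peaks. In 886 of the 952 knock-down peaks and 84 of the 93 control peaks the deposited length matches the interval, and in all of these the deposited summit is the midpoint of the interval to within 1 bp. It is called the peak position below and does not place binding to the base. All peaks at the enzyme genes are of this kind.

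After Opa1 knock-down 5 of the 9 enzyme genes had a peak, namely Psat1, Psph, Shmt2, Mthfd2 and Aldh1l2, with 7 peaks between them. In the control list 1 of the 9, Shmt2, had peaks, and it had 2. By the same rule 6.23% of all coding genes had a knock-down peak and 0.927% a control peak. No peak of either list lay within 50 kb of Phgdh, Shmt1, Mthfd1 or Mthfd1l. The enzyme genes with their flanks span 1.32 Mb and held 5.29 knock-down peaks per Mb, where the flanked coding genes as a whole held 0.435. The corresponding control values were 1.51 and 0.0439 peaks per Mb. Because the genes were chosen with earlier results known, these values describe them and are no independent measure of enrichment.

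**Figure D1:**
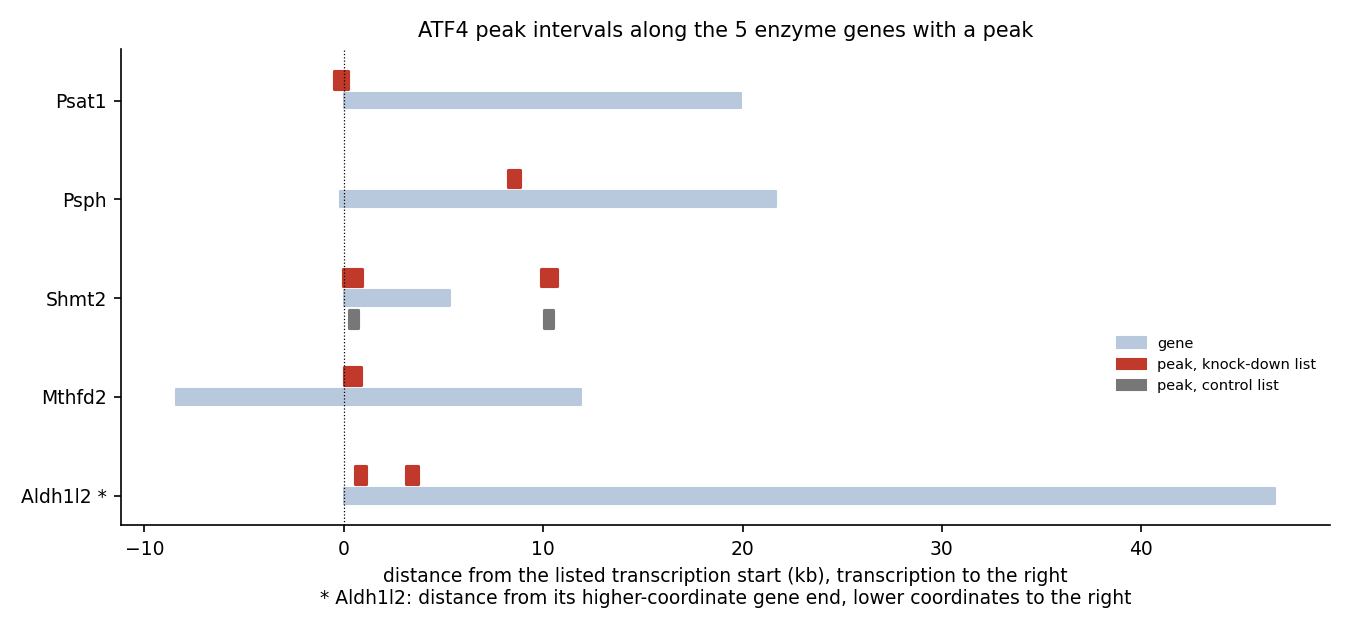
Peak intervals of the knock-down list (red, above each gene) and the control list (grey, below) along the 5 enzyme genes that had a peak, with distance in kb from the listed transcription start, or for Aldh1l2 from its higher-coordinate end. The positions of the Psat1, Mthfd2 and first Shmt2 peaks are within 1 kb of the start, the Psph peak lies 8550 bp into the gene, the second Shmt2 peak lies beyond the gene, and grey bars appear at Shmt2 alone.

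Among the serine synthesis genes, Psat1 had the peak with the highest fold. Psat1, which moves an amino group from glutamate onto the serine precursor, lies on the minus strand at chr19:15905123-15925059 (mm10). Its knock-down peak at chr19:15924871-15925528 was 658 bp wide and held 69 tags (95% Poisson interval 53.7 to 87.3), or 105 tags per kb. The fold was 17.21, at rank 36, and 52 of the 952 knock-down peaks had a higher one. The peak position lay 141 bp before the first of 2 listed starts, and the peak covered the whole 300-base window listed around that start. The control list had no peak there, and its nearest was 1.65 Mb away.

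The 250 bases before that Psat1 start are shown because this is the only enzyme promoter whose listed window holds a peak position (GRCm38.p6, chr19:15925060-15925309, minus strand, in the direction of transcription). Capitals mark the stretch that matches 7 of the 8 letters of TGATGCAA, a form of the element that ATF4 binds together with C/EBP partners.
Psat1: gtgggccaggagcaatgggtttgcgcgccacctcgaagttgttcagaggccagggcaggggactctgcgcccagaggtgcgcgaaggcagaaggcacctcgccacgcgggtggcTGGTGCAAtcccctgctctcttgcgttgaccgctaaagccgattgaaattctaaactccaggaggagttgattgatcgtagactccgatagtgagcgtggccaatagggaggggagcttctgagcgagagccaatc
The capitals lie 136 to 129 bases before the start, and the peak position, the midpoint of the interval, 141 bases before it. The peak covers the whole listed window, so any match in that window would lie under it. A full match to TGATGNAA on either strand was found in none of the 9 listed promoter windows of the 8 matched enzyme genes, 250 bases before to 50 after each start, against 3.97% of all 32851 windows. Of the 41 windows that hold a knock-down peak position, 25 had TGATGNAA (61.0%), and the Psat1 window was among the 16 without. Of the 11 windows that hold a control peak position, 8 had it (72.7%). Allowing 1 mismatch to TGATGCAA, which was tried only once the data had been seen, gave a match in 39 of those 41 windows (95.1%) and in 16.9% of all windows. Among the enzymes the match was found in Psat1 and in Mthfd1l, which had no peak. TGATGCAA in full was found in 0.895% of all windows, TGACGTCA in 1.79%, TTGCGCAA in 0.183% and CACGTG in 7.15%, each searched on both strands, and in no enzyme window. TGATGCAA is one of the forms of TGATGNAA, so these counts overlap. A match describes the letters of a window and is not a measured site, and a window without one says nothing of the factor.

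Psph, the phosphatase of the last step of serine synthesis, had a weaker peak inside the gene. The knock-down peak at chr5:129778409-129778995 (mm10) held 30 tags (95% Poisson interval 20.2 to 42.8) and had a fold of 6.69, below the list's median. Its rank was 433, and 660 knock-down peaks had a higher fold. The peak position lay 8550 bp after the listed Psph start and 8653 bp from the neighbouring gene Cct6a. Both genes start close together and point away from each other, and no peak lay at their starts. Phgdh, the enzyme that commits 3-phosphoglycerate to serine, had no peak in its gene at chr3:98313171-98339969 (mm10) or nearby. The nearest knock-down peak was 520292 bp away (fold 6.27, 26 tags) and the nearest control peak 2.05 Mb away. In all, 2 of the 3 serine synthesis genes had a knock-down peak and none of the 3 a control peak. Of all coding genes, 6.23% had a knock-down peak and 0.927% a control peak by the same rule. The tag intervals of the Psat1 and Psph peaks do not overlap, but they cover counting error in 1 library only. A difference between these peaks was not tested.

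Of the 4 mitochondrial enzymes of the one-carbon cycle, 3 had a knock-down peak, and of the 2 cytosolic ones, Shmt1 and Mthfd1, neither did. By the same rule 6.23% of all coding genes had a knock-down peak, so a lack of peaks at 2 genes is usual. These numbers are too small for a comparison of the compartments, and none was tested.

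Shmt2, the mitochondrial serine hydroxymethyltransferase, was the enzyme gene with peaks in both lists. It lies on the minus strand at chr10:127517123-127522444 (mm10). Among control peaks the first of them held 31 tags (95% Poisson interval 21.1 to 44.0) and had a fold of 11.92 at rank 17. In the knock-down list it held 90 tags (72.4 to 111), with a fold of 20.08 at rank 25. A higher fold was held by 8 of the 93 control peaks and by 32 of the 952 knock-down peaks. The peak positions in both lists were 37 bp apart, at 467 bp (control) and 430 bp (knock-down) after the Shmt2 start. The peak was 457 bp wide among the control peaks and 962 bp wide after knock-down, so tags per kb of peak were 67.8 (46.1 to 96.3) and 93.6 (75.2 to 115).

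The wider knock-down peak reached 50 bases past the start into the Shmt2 promoter. The last 100 bases before the start are shown with those 50 in capitals, to show how little of the promoter the peak takes in (GRCm38.p6, chr10:127522445-127522544, minus strand).
Shmt2: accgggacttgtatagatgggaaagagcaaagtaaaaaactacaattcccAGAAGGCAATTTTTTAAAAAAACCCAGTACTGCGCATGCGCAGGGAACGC
None of the motifs searched was found in the Shmt2 window, and the sequence under the peak position was not used here.

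A second Shmt2 peak lay beyond the other end of the gene, 4931 bp from it (control) and 4971 bp from it (knock-down). The peak is inside the neighbouring coding gene Ndufa4l2, so its count for Shmt2 rests on the 50 kb rule. In the control list it held 23 tags (95% Poisson interval 14.6 to 34.5) with a fold of 7.53 at rank 47. The knock-down list gave 51 tags (38.0 to 67.1) and a fold of 12.91 at rank 122. Here 36 of the 93 control peaks and 120 of the 952 knock-down peaks had a higher fold. The peak positions were 40 bp apart between the lists. Nxph4, Stac3, Lrp1 and R3hdm2 also lie within 50 kb of both Shmt2 peaks, and the peak lists do not say which gene a site acts on.

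**Figure D2:**
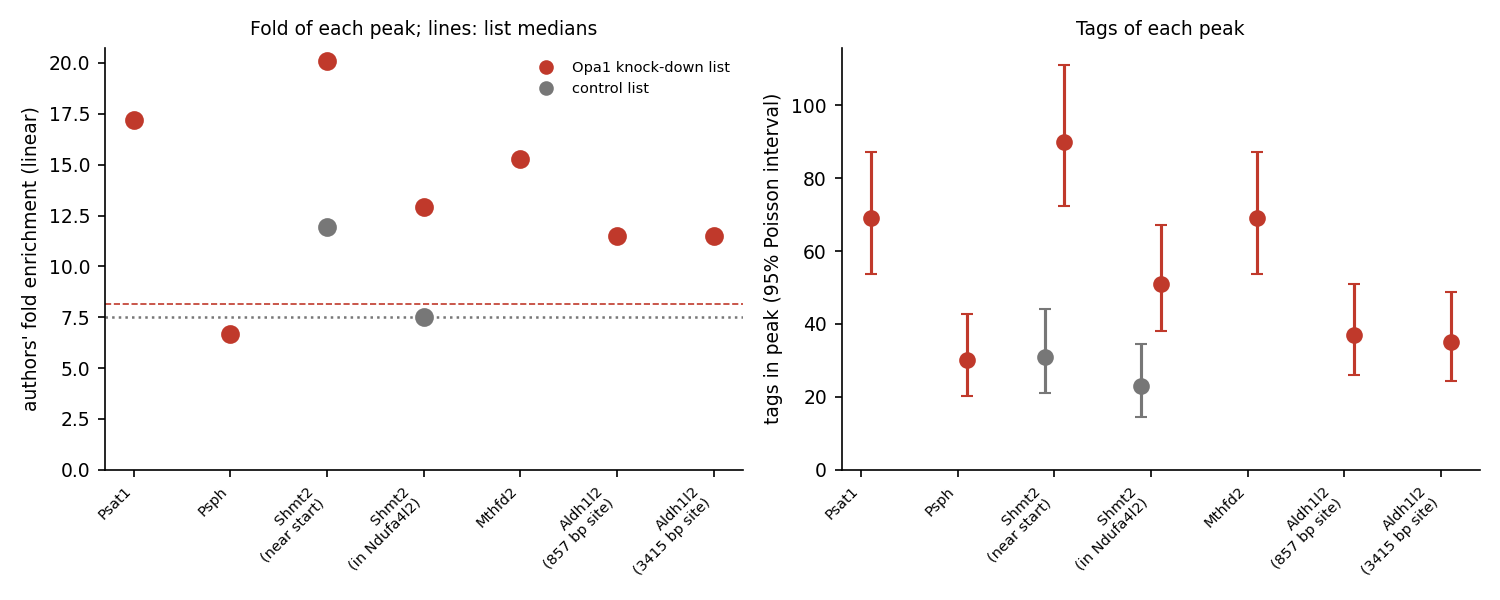
Authors' fold (left, linear scale, lines at the medians of 8.13 for the knock-down list, dashed, and 7.53 for the control list, dotted) and tags with 95% Poisson intervals (right) of each peak at the enzyme genes. Only the Shmt2 sites have a grey control point, and the Psph peak is the one red point below the knock-down median.

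Both Shmt2 sites had a higher fold in the knock-down list, by 1.68 times at the first and 1.71 times at the second. Over the 80 peaks found in both lists the median of this ratio was 2.26 (range 0.762 to 5.08). Of these 80, 63 had a higher ratio than the first Shmt2 site and 62 a higher one than the second. By tags the ratios were 2.90 and 2.22 against a median of 2.75 over the 80 peaks, so the first site lay above the median by tags and below it by fold. By tags per kb of peak they were 1.38 and 1.33 against a median of 1.53, so both sites lay below it. The folds come from separate calls whose settings and control library are not given, so no change in binding was measured by these ratios.

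**Figure D3:**
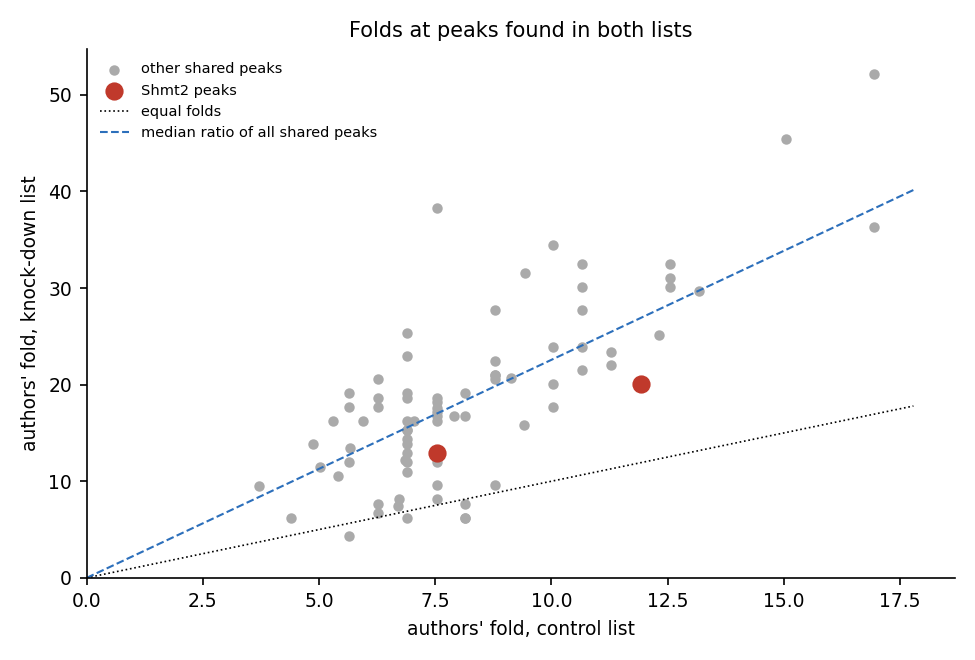
Authors' fold in the control list (x axis) and the knock-down list (y axis) for the 80 shared peaks, with the equal-fold line dotted and the median ratio of 2.26 dashed. The Shmt2 sites, in red, lie above the dotted line and below the dashed one.

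Mthfd2, the mitochondrial dehydrogenase and cyclohydrolase that acts on the carbon Shmt2 releases, had a knock-down peak inside the gene, a short way after its listed start. Its annotated span is chr6:83305704-83326011 (mm10), minus strand, and the listed start is inside that span. The peak at chr6:83316766-83317572 held 69 tags (95% Poisson interval 53.7 to 87.3), or 85.5 per kb, with a fold of 15.3 at rank 47. The peak position was 434 bp after the listed start but 8841 bp from the nearer end of the span, so the peak is near the start by the first measure and not by the second. The peak itself did not reach the start and held none of the bases before it. The nearest control peak was 14.8 Mb away. The next coding gene, Mob1a, was 8864 bp away.

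Within 1 kb of a listed start, Psat1, Shmt2 and Mthfd2 had a knock-down peak position, 3 of the 8 matched enzyme genes, where 0.577% of coding genes with a listed start did. In the control list Shmt2 was the 1 of 8, against 0.149%. The Shmt2 and Mthfd2 positions were after the start, and the Psat1 position before it. Over the whole knock-down list 96 peak positions were within 1 kb of a listed start, 52 before it and 44 after it.

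Aldh1l2, which oxidises formyl-tetrahydrofolate in mitochondria, had 2 knock-down peaks and no control peak. Both are inside the gene (chr10:83487447-83534146, mm10), 857 and 3415 bp from its higher-coordinate end and 2558 bp from each other. The first held 37 tags (95% Poisson interval 26.1 to 51.0) at rank 198 and the second 35 tags (24.4 to 48.7) at rank 284. Both have a fold of 11.47, which 186 of the 952 knock-down peaks exceed. Of the 437 coding genes with a knock-down peak position inside, 37 (8.47%) had 2 or more. Washc4 was the other coding gene within 50 kb of both peaks, and its start was 10652 bp from the nearer one.

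Mthfd1l, the mitochondrial formate-producing synthetase, is the longest of the 9 genes at 194 kb and had no peak. Its nearest peak was 4.85 Mb away in both lists. For the cytosolic enzymes, the nearest knock-down peak was 1.36 Mb from Shmt1 and 1.78 Mb from Mthfd1, the cytosolic trifunctional folate enzyme. The furthest peak that counted for an enzyme gene was the second Shmt2 peak at 4971 bp. Among the 4 genes without a peak the nearest one was that at 520292 bp from Phgdh, and windows of 5 kb and 100 kb gave the same counts as 50 kb.

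**Figure D4:**
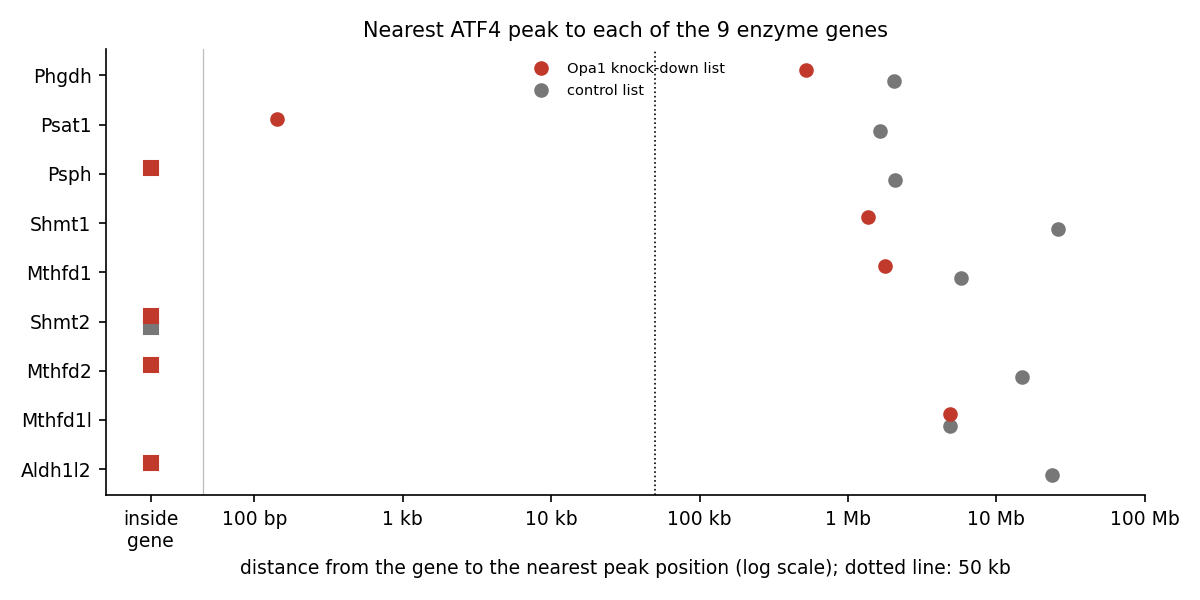
Distance from each of the 9 enzyme genes to the nearest peak position in the knock-down list (red) and the control list (grey), on a log scale with the 50 kb limit dotted and squares for positions inside the gene. The 5 genes with a peak have a red point at or under 141 bp, and the other 4 have none under 520292 bp.

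Whether the knock-down peaks without a control partner would have been seen in the control library was described by the peaks of like strength. Over the whole lists, 80 of the 952 knock-down peaks (8.4%) overlapped a control peak, and 80 of the 93 control peaks (86.0%) a knock-down peak. Of the 36 knock-down peaks up to the rank of Psat1, 30 overlapped a control peak and 6 did not, Psat1 among them. Up to the rank of Mthfd2 the numbers were 35 and 12 of 47. Both counts take in every peak of better rank. Among the 20 peaks nearest in rank, 12 overlapped a control peak for Psat1 and 12 for Mthfd2. Psat1 and Mthfd2 each had 17 other knock-down peaks within 5 tags of their 69, with the peak of the other gene among them. In each set 8 had a control partner, and those partners held 18 to 31 tags. The lowest tag number in the control list was 15. Peaks as strong as Psat1 and Mthfd2 were thus found in the control list in some cases and missing in others. At the strength of the Aldh1l2 peak with 37 tags 7 of 217 other knock-down peaks had a partner, and at that of Psph 5 of 394, so for these a missing control peak is usual in these lists. An enzyme gene without a control peak may still have been bound in control neurons below the level that was called.

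**Figure D5:**
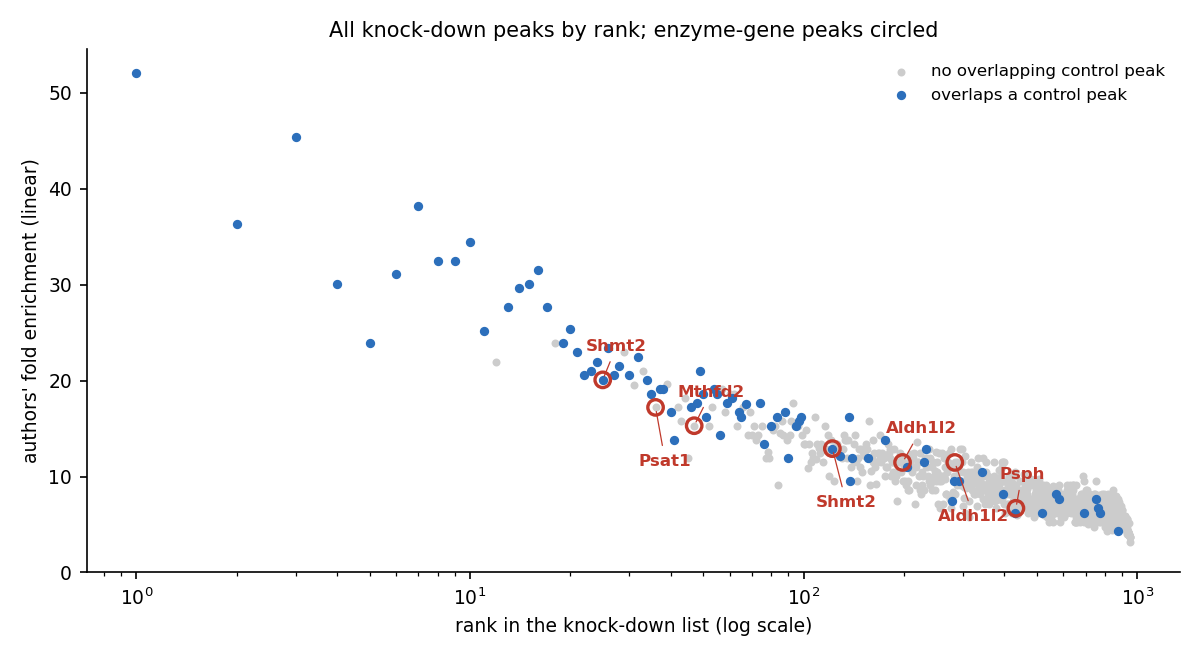
All 952 knock-down peaks by rank (x axis, log scale) and authors' fold (y axis), in blue where they overlap a control peak and grey where they do not, with the 7 peaks at the enzyme genes circled and named. The circles of Psat1, Mthfd2 and the first Shmt2 site lie between ranks 25 and 47, where blue points outnumber grey ones, and those of the second Shmt2 site, Aldh1l2 and Psph where grey ones prevail.

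Around these enzymes, 34 other genes of folate, glycine, methionine and serine metabolism were counted by the same rule. In the control list 0 of the 34 had a peak and in the knock-down list 2 did, Slc1a4 and Slc6a9. Of all coding genes, 6.23% had a knock-down peak and 0.927% a control peak by that rule. The 34 genes do not cover the whole list, so their share was not compared with these. Slc1a4, a transporter of serine and other small neutral amino acids, had a peak 28 bp after a listed start with a fold of 11.95 and 49 tags. Slc6a9, a glycine transporter, had one 185 bp after a listed start with a fold of 6.69 and 30 tags. No peak lay within 50 kb of the glycine cleavage genes Gldc, Amt, Gcsh and Dld, the thymidylate synthase gene Tyms, the mitochondrial folate carrier Slc25a32 or the mitochondrial serine carrier Sfxn1. Markers counted by the same rule had no peak in either list, with 0 of 5 for neurons, 0 of 5 for astrocytes, 0 of 3 for microglia and 0 of 3 for the oligodendrocyte lineage.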

How the data were processed

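ATF4 ChIP-seq peak lists from control and Opa1 knock-down neurons were analysed, each tied to its library by the hairpin in its name. The submitters' processing notes name mm10, MACS2, deepTools and MultiQC. Not given in the sources used here were the aligner, the control library of the calls, their thresholds and the depth. Each deposited entry holds the authors' rank, p-value score, fold enrichment (a linear ratio), length, summit and tag count. Coordinates were taken as 1-based, the reading under which interval and length field match in most peaks.

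A peak was counted for a gene when its deposited summit lay inside the gene or within 50 kb. Gene spans, starts, strands and promoter sequences were those of RefSeq on GRCm38.p6, which shares mm10 coordinates. The table of starts matched 8 of the 9 enzyme genes, and no start on chromosome 18 was used here. Peaks were shared when they overlapped by at least 1 bp. Tag intervals are exact Poisson at 95% and cover counting error only. No test was run, since each condition has 1 library. The named genes were the 9 enzymes with every peak by that rule, and 34 other genes of the pathway counted the same way; 2 further genes of that list are not reported here. The members and lists were chosen with earlier results of these data known. Steps were tested on simulated peaks. Alternatives covered the window, peak subsets, overlap rule, fold measure and motif. Scripts ran in Python 3.11.15 with pandas 2.3.3, scipy 1.17.1, numpy 2.4.6 and matplotlib 3.10.9.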

Additional observations from a re-analysis of the deposited data

How the results depend on the processing

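The settings that kept as many top-ranked knock-down peaks as control peaks, allowed a motif mismatch or compared tags were chosen after the data were seen. The 5 enzyme genes and 7 peaks of the knock-down list became 3 and 3 among its 93 top-ranked peaks, where fewer peaks entered. They stayed at 5 and 7 with windows of 5, 10 and 100 kb, in the higher-scoring part of the list, in the first score form alone and with any base of the peak counted. They were 4 and 6 at a fold of at least 10, and 5 and 6 with the nearest coding gene alone. In the control list Shmt2 was counted under every one of these settings, and its 2 peaks became 1 with the nearest coding gene alone and 1 at that fold minimum. The number of shared peaks, 2, became 1 at a fold minimum of 10. It also became 1 under a reciprocal overlap of 50%, since the first Shmt2 peak is 457 bp wide in the control list and 962 bp after knock-down. The median fold ratio of 1.70 at the Shmt2 sites was 1.35 by tags per kb and 2.56 by tags. Windows with the motif were 0 with TGATGCAA in full or a shorter promoter window, and 2 with 1 mismatch allowed. No paired analysis was possible because the conditions share no replicate numbers beyond their single libraries. Depth is unknown, and precision rests on 23 to 90 tags per peak.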
